A study of Mus musculus with 8 samples.

Results

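The genes described here are the classical cadherins *Cdh1*, *Cdh2* and *Cdh3* and the catenins *Ctnnb1*, *Jup*, *Ctnna1* and *Ctnnd1*, which are 7 of the 55401 genes counted in total RNA of mouse embryonic stem cells (ESCs). They were chosen by name as the core of the adherens junction, and *Cdh3* was included because its RNA was higher in Zzz3 auxin than in control libraries. Levels of *Cdh3* are therefore given as a description, with no test in any comparison, since all comparisons share libraries with that choice. All 7 genes passed the filter on low counts, as did 17532 genes in all.

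The 8 libraries comprised 3 labelled Zzz3 auxin, 3 labelled Yeats2 auxin and 2 labelled Control. In the auxin groups, ZZZ3 or YEATS2, which both belong to the coactivator complex ATAC (Ada-two-A-containing), was fused to an AID (auxin-inducible degron), by which a protein is degraded when the plant hormone auxin is present together with the F-box protein Tir1. Auxin was given at 500 μM for 24 hours. All groups were cultured in foetal calf serum (FCS), leukaemia inhibitory factor and 2 inhibitors (2i), 3 μM CHIR99021 against GSK3 and 1 μM PD0325901 against MEK, under G418 to keep Tir1 expressed. Neither the cell line nor the treatment of the controls is given in the labels. The supplement of the study describes its RNA metabolism estimates as made from ZZZ3-AID and YEATS2-AID cells given DMSO (the solvent) or auxin, but does not say which line each of these 2 control libraries came from, so the depletion, the exposure to auxin and any difference of line cannot be told apart in a comparison with Control. The number of clones behind each line is not given in the sources used here, and without a statement that the libraries come from separate cultures the P values may measure technical spread only.

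Classical cadherins are single-pass membrane proteins that bind calcium and hold neighbouring cells together through contacts of their extracellular repeats. E-cadherin (*Cdh1*) holds ESC colonies and epithelia together, N-cadherin (*Cdh2*) is typical of neural and mesenchymal cells, and P-cadherin (*Cdh3*) is known from placenta and the basal layer of epithelia. Their cytoplasmic tails bind β-catenin (*Ctnnb1*) or its paralog plakoglobin (*Jup*), which in turn bind α-catenin (*Ctnna1*) and through it actin, while p120-catenin (*Ctnnd1*) binds closer to the membrane and slows the removal of cadherin from the cell surface. β-Catenin is also the effector of Wnt signalling, and GSK3 marks it for destruction, so a GSK3 inhibitor such as CHIR99021 can stabilize β-catenin protein. All groups here were given CHIR99021, but these data hold no measurement of protein. RNA counts would not show such stabilization.

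Between 14315120 reads, in Zzz3 auxin replicate 3, and 27884704 reads, in Yeats2 auxin replicate 2, were assigned to genes. The targeted gene *Zzz3* had 186 and 182 CPM (reads scaled to a common library size) in Control, 77.5, 96.9 and 112 in Zzz3 auxin and 183 to 191 in Yeats2 auxin. *Yeats2* had 90.9 and 95.8 CPM in Control, 77.3, 103 and 43.7 in Yeats2 auxin and 119 to 133 in Zzz3 auxin. The degron acts on protein, so RNA of the target does not check a depletion. Summed levels of 8 ESC markers (*Pou5f1*, *Sox2*, *Nanog*, *Esrrb*, *Zfp42*, *Klf4*, *Tbx3* and *Dppa5a*) ran from 2930 to 3140 CPM in Control, from 2860 to 3140 CPM in Zzz3 auxin and from 3100 to 3180 CPM in Yeats2 auxin. All 8 markers passed the filter, and 0 of them were absent from any group. The markers did not move together. Against Control, 3 were higher and 5 lower in Zzz3 auxin, and 5 were higher and 3 lower in Yeats2 auxin. Means in Control, Zzz3 auxin and Yeats2 auxin were 348, 535 and 509 CPM for *Pou5f1* and 754, 647 and 623 CPM for *Nanog*.

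*Cdh3* and *Cdh1* are neighbours on chromosome 8 (GRCm38, the assembly also called mm10). *Cdh3* (ENSMUSG00000061048) lies at chr8:106510891-106557297 and *Cdh1* (ENSMUSG00000000303) at chr8:106603351-106670246, both on the plus strand, with 46.1 kb between them. Since *Cdh1* RNA was far more abundant, the transcripts were compared base by base to see how much sequence a read could share. The longest exact run in common between the 3 annotated *Cdh1* transcripts and the single *Cdh3* transcript was 16 bases. It lies in coding sequence, in exon 5 of 16 in both genes, and in the 88-base windows around it, which begin in exon 4, 66 bases were equal at the same place. The stretches are shown because they hold this longest exact run, with the shared run in capitals and 36 bases of each transcript on either side. Only exact runs were searched for, so other windows may hold more equal bases. They are spliced reference sequence from GENCODE transcripts, 5′ to 3′, from chr8:106653646-106653846 for *Cdh1* and chr8:106536682-106536898 for *Cdh3*, spans that include the intron between both exons.
Cdh1: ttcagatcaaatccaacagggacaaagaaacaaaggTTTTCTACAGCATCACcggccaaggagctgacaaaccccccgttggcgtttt
Cdh3: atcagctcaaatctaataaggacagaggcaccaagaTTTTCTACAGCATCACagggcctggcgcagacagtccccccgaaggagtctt
The shared run is much shorter than the paired reads of this study, so a read of one gene that covers it also holds differing bases. No annotated gene overlaps *Cdh1* or *Cdh3* in the annotation used.

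*Cdh3* was weakly expressed in Control, with 52 and 41 reads or 2.57 and 1.86 CPM. In Zzz3 auxin it had 355, 180 and 86 reads, which is 13.6, 6.6 and 5.76 CPM. In Yeats2 auxin the values were 146, 132 and 123 reads or 5.65, 4.78 and 4.87 CPM. Every auxin library was above both controls, Zzz3 auxin replicate 1 stood far above all others, and the lowest Zzz3 auxin library was just above the highest Yeats2 auxin library. Exact Poisson intervals (95%) cover counting error only and are no test of a gene chosen for its rise. For the nearest libraries of Control and Zzz3 auxin they were 1.92 to 3.36 CPM (Control replicate 1) and 4.6 to 7.11 CPM (Zzz3 auxin replicate 3). For the farthest they were 1.33 to 2.52 CPM (Control replicate 2) and 12.2 to 15.1 CPM (Zzz3 auxin replicate 1). The group means were 2.21 ± 0.499 CPM (SD, n = 2) in Control, 8.66 ± 4.32 (SD, n = 3) in Zzz3 auxin and 5.1 ± 0.479 (SD, n = 3) in Yeats2 auxin. Fitted log2 fold changes (FCs), from edgeR's quasi-likelihood model, were 1.98 ± 0.37 (SE) for Zzz3 auxin and 1.21 ± 0.37 (SE) for Yeats2 auxin against Control, and -0.78 ± 0.29 (SE) for Yeats2 auxin against Zzz3 auxin. Without Zzz3 auxin replicate 1 the first of these was 1.51 and the direct difference was -0.29.

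*Cdh1* was the dominant cadherin in every library. It had 458 and 422 CPM in Control, 738, 585 and 383 CPM in Zzz3 auxin, and 566, 549 and 572 CPM in Yeats2 auxin. The Zzz3 auxin libraries lay on both sides of the controls, whereas the 3 Yeats2 auxin libraries were close to each other and above both controls. The log2 FC against Control was 0.37 ± 0.21 (SE) for Zzz3 auxin (adjusted P = 0.327) and 0.35 ± 0.21 (SE) for Yeats2 auxin (adjusted P = 0.451), and neither passed the threshold. Zzz3 auxin replicate 3, the library with the fewest reads, decided the first of these calls, because without it the log2 FC was 0.60 and passed the threshold (edgeR adjusted P = 0.0306), while over all 14 alternatives the adjusted P ran from 0.0306 to 0.717. Without Zzz3 auxin replicate 1 the log2 FC was 0.16 (edgeR adjusted P = 0.667). Between both depletions *Cdh1* differed by a log2 FC of -0.02 (95% interval -0.38 to 0.34).

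**Figure D1:**
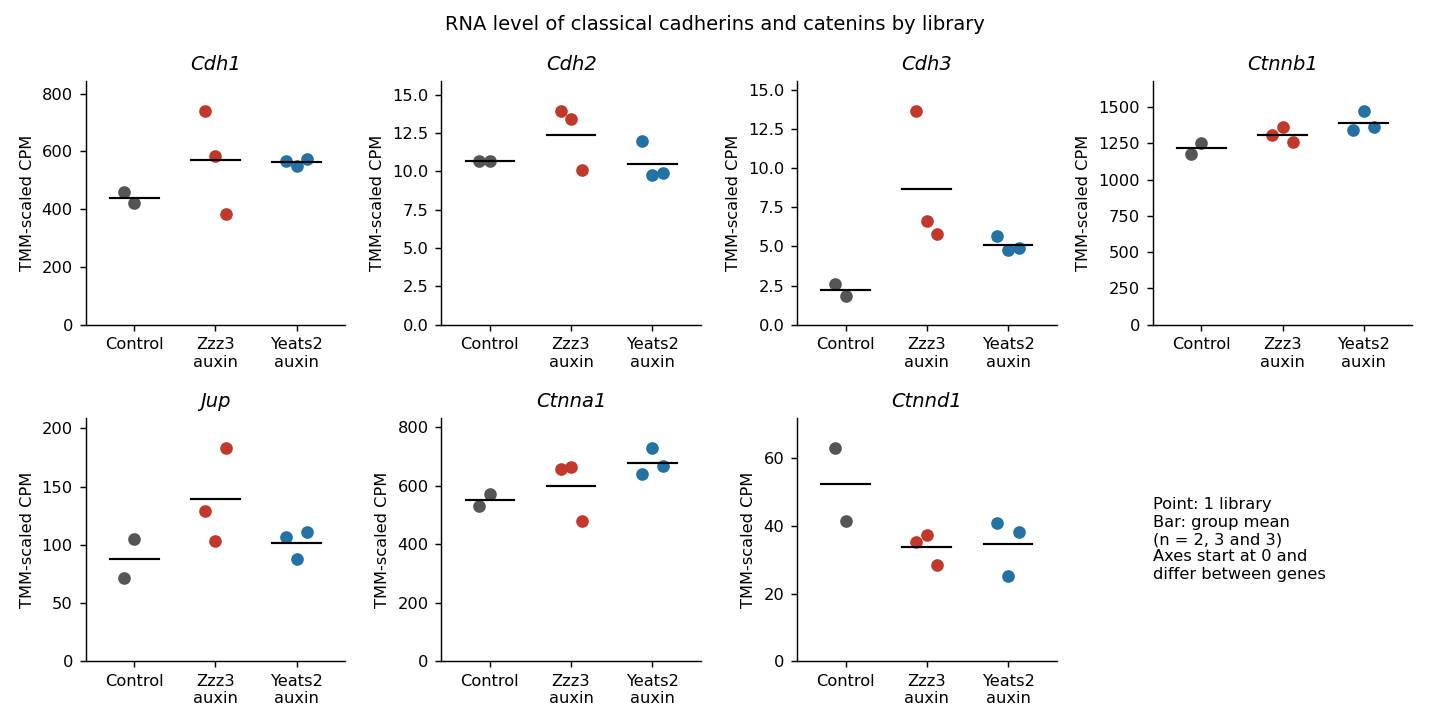
TMM-scaled CPM (y axes, from 0, a different range for each gene) of the 7 genes in the 8 libraries, 1 point per library with a bar at the group mean, for Control (n = 2), Zzz3 auxin (n = 3) and Yeats2 auxin (n = 3). Every auxin library is above both controls for *Cdh3*, which was chosen for its rise, and for *Ctnnb1*. For *Ctnnd1* every auxin library is below both controls, by a very small margin (40.8 against 41.5 CPM at the nearest). The Zzz3 auxin points of *Cdh1*, *Cdh3*, *Jup* and *Ctnna1* spread more widely than those of Yeats2 auxin.

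Annotated genes within 250 kb of *Cdh3* and *Cdh1* were examined as well. Of 11 such neighbours, 5 passed the filter on low counts, and 0 of these were called in either comparison with Control. *Tango6*, downstream of *Cdh1*, had a log2 FC of 0.27 ± 0.15 (SE, adjusted P = 0.312) in Zzz3 auxin and 0.25 ± 0.15 (SE, adjusted P = 0.451) in Yeats2 auxin. *Has3*, which encodes a hyaluronan synthase, had 0.83 ± 0.38 (SE, adjusted P = 0.233) and -0.11 ± 0.38 (SE, adjusted P = 0.917). *Zfp90*, upstream of *Cdh3*, had 0.21 and 0.10, *Chtf8* had 0.38 and -0.24 and *Utp4* had -0.12 and -0.10, in the same order.

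*Cdh2* (ENSMUSG00000024304, chr18:16588877-16809246, minus strand) was expressed at a low level. It had 10.7 CPM in each Control library, 13.9, 13.4 and 10.1 CPM in Zzz3 auxin, and 12.0, 9.73 and 9.89 CPM in Yeats2 auxin. Both auxin groups held libraries above and below the controls. The log2 FC was 0.22 ± 0.19 (SE, adjusted P = 0.525) in Zzz3 auxin and -0.03 ± 0.19 (SE, adjusted P = 0.964) in Yeats2 auxin, with 95% intervals of -0.15 to 0.59 and -0.39 to 0.34. The sign of the second value was not stable, since it was 0.06 with the replicate number as a block. An antisense gene, *Gm15485*, overlaps *Cdh2* outside its exons.

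To compare levels between genes, reads were divided by the length of the union of exons and expressed as RPKM (CPM per kilobase). In Control the order of mean levels was *Ctnnb1* with 234 ± 10.0 RPKM, *Cdh1* with 96.2 ± 5.46, *Ctnna1* with 85.7 ± 4.41, *Jup* with 13.7 ± 3.65, *Ctnnd1* with 7.13 ± 2.06, *Cdh2* with 1.33 ± 0.00379 and *Cdh3* with 0.505 ± 0.114 RPKM (SD, n = 2). Libraries of neighbours in this order did not overlap in Control. In Zzz3 auxin, *Cdh1* (83.8 to 161 RPKM) and *Ctnna1* (74.7 to 103 RPKM) overlapped, as did *Cdh3* (1.31 to 3.11 RPKM) and *Cdh2* (1.25 to 1.72 RPKM), and the mean of *Cdh3* was then the higher of the last pair. In Yeats2 auxin, *Cdh3* (1.09 to 1.29 RPKM) and *Cdh2* (1.21 to 1.49 RPKM) overlapped as well. These places depended on the length used. With the longest transcript as length, the mean share of the summed cadherins in Zzz3 auxin was 2.0% for *Cdh2* and 1.46% for *Cdh3*. In Yeats2 auxin *Cdh2* then held 1.54% to 1.88% and *Cdh3* 0.839% to 0.979%, without overlap. *Ctnna1*, with a union of exons of 6425 bases and a longest transcript of 3733, was not ranked against *Cdh1* by that length.

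Expressed as shares of the summed RPKM of the 3 cadherins, *Cdh1* made up 98.1% in each Control library, 97.0% to 97.6% in Zzz3 auxin and 97.8% to 98.2% in Yeats2 auxin. The share of *Cdh3* was 0.574% and 0.451% in Control, 1.87%, 1.15% and 1.52% in the Zzz3 auxin libraries, and 1.02%, 0.891% and 0.871% in those of Yeats2 auxin. These 3 ranges did not overlap. The ratio of *Cdh1* to *Cdh3* per length accordingly went from 171 and 218 in Control to between 51.9 and 85.1 in Zzz3 auxin and between 96.1 and 113 in Yeats2 auxin. *Cdh2* held 1.30% and 1.42% in Control, 1.03% to 1.45% in Zzz3 auxin and 0.963% to 1.17% in Yeats2 auxin. E-cadherin RNA therefore remained at least 97.0% of the summed RNA of these 3 genes in every library on this scale. Other cadherins, such as *Cdh4*, were not in the sum. No test was made of shares because *Cdh3* enters them.

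**Figure D2:**
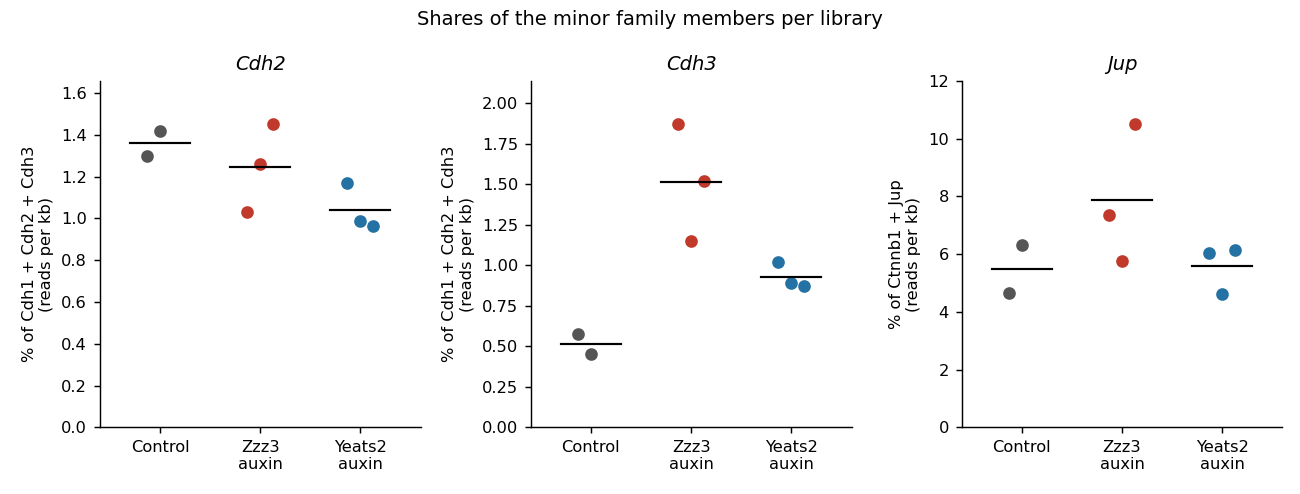
Share (y axes in percent, from 0) of *Cdh2* and of *Cdh3* in the summed reads per kilobase of *Cdh1*, *Cdh2* and *Cdh3*, and of *Jup* in those of *Ctnnb1* and *Jup*, 1 point per library with a bar at the group mean. The *Cdh3* share is 0.451% to 0.574% in Control and 1.15% to 1.87% in Zzz3 auxin, with Yeats2 auxin between them.

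*Ctnnb1* (ENSMUSG00000006932, chr9:120929216-120960507, plus strand), which links cadherin to α-catenin and carries the Wnt signal, was the most abundant of the 7 RNAs. It had 1180 and 1250 CPM in Control, 1310, 1360 and 1260 CPM in Zzz3 auxin, and 1340, 1470 and 1360 CPM in Yeats2 auxin. All 6 auxin libraries were above both controls, by a margin that was very small for Zzz3 auxin replicate 3. The log2 FC was 0.11 ± 0.11 (SE, adjusted P = 0.598) in Zzz3 auxin and 0.19 ± 0.11 (SE, adjusted P = 0.432) in Yeats2 auxin. The 95% intervals were -0.10 to 0.32 and -0.02 to 0.41, and with so few libraries they may be too narrow. *Ulk4* on the opposite strand and the small RNA gene *Mir7090* overlap exons of *Ctnnb1*, and whether reads were counted by strand is not stated.

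*Jup* (ENSMUSG00000001552, chr11:100368958-100397763, minus strand) encodes plakoglobin, which can take the place of β-catenin in the junction and also belongs to desmosomes. Because it is a close paralog of the far more abundant *Ctnnb1*, both were compared in the same way as the cadherins. The longest run in common between 15 *Ctnnb1* and 9 *Jup* transcripts was 20 bases. It lies in coding sequence, in exon 7 of 15 of *Ctnnb1* (window chr9:120952886-120952977, plus strand) and exon 6 of 14 of *Jup* (window chr11:100380570-100380661, minus strand), and 71 of the 92 bases of these windows were equal at the same place. The stretches are given 5′ to 3′ along each transcript, as above, with the shared run in capitals.
Ctnnb1: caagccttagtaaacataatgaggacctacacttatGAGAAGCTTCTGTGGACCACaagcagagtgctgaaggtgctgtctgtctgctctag
Jup: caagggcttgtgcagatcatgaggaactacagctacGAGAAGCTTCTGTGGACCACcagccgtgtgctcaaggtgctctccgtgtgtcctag
Here too, a read that covers the run holds bases that differ between both genes.

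*Jup* had 71.3 and 105 CPM in Control, 129, 103 and 183 CPM in Zzz3 auxin, and 107, 88.1 and 111 CPM in Yeats2 auxin. The groups overlapped, and Zzz3 auxin replicate 3 was the highest library. The log2 FC was 0.65 ± 0.23 (SE, adjusted P = 0.144) in Zzz3 auxin, 0.21 ± 0.23 (SE, adjusted P = 0.708) in Yeats2 auxin and -0.44 ± 0.20 (SE, adjusted P = 0.779) in Yeats2 auxin against Zzz3 auxin. The first of these was 0.40 and 0.96 without Control replicate 1 and 2, respectively, and 0.41 when Zzz3 auxin replicate 3 was left out. The longest *Jup* transcript has a GC content of 58.8%, above that of 93.8% of the genes tested, each taken by its longest transcript. Libraries differed in the level of GC-rich genes relative to GC-poor ones. The median deviation of genes over 55% GC minus that of genes under 43% GC was -0.64 and -0.08 (log2) in Control, 0.17, -0.03 and 0.47 in Zzz3 auxin and -0.04 to 0.16 in Yeats2 auxin. Whether these differences arose in the libraries or in the cells was not tested. After correction for the dependence of each library on GC content and length, the log2 FC of *Jup* was 0.24 in Zzz3 auxin and -0.02 in Yeats2 auxin. Of the summed RPKM of *Ctnnb1* and *Jup*, *Jup* made up 4.66% and 6.31% in Control, 5.77% to 10.5% in Zzz3 auxin and 4.62% to 6.16% in Yeats2 auxin.

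*Ctnna1* (ENSMUSG00000037815, chr18:35118859-35254779, plus strand) had 531 and 571 CPM in Control, 657, 665 and 480 CPM in Zzz3 auxin, and 640, 729 and 669 CPM in Yeats2 auxin. As with *Cdh1*, Zzz3 auxin replicate 3 was below both controls and all Yeats2 auxin libraries were above them. The log2 FC was 0.12 ± 0.15 (SE, adjusted P = 0.660) in Zzz3 auxin and 0.30 ± 0.15 (SE, adjusted P = 0.368) in Yeats2 auxin. Per length, *Ctnna1* stood at 0.364 and 0.368 of *Ctnnb1* in Control, at 0.309 to 0.405 in Zzz3 auxin and at 0.386 to 0.401 in Yeats2 auxin. The levels of *Ctnnb1* per unit of summed cadherin were 2.23 and 2.56 in Control, 1.52, 2.00 and 2.80 in Zzz3 auxin and 2.04 to 2.31 in Yeats2 auxin. *Lrrtm2*, on the opposite strand, shares exonic positions with *Ctnna1*.

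*Ctnnd1* (ENSMUSG00000034101, chr2:84600071-84650765, minus strand) was the only one of the 7 genes with every auxin library below both controls. It had 62.8 and 41.5 CPM in Control, 35.3, 37.3 and 28.4 CPM in Zzz3 auxin, and 40.8, 25.1 and 38.0 CPM in Yeats2 auxin. In CPM, the controls differed from each other by more than the lower control differed from any auxin library. In log2 CPM this did not hold for Yeats2 auxin replicate 2, which had 4.657 against 5.975 and 5.378 in Control. The log2 FC was -0.63 ± 0.22 (SE, adjusted P = 0.147) in Zzz3 auxin and -0.59 ± 0.22 (SE, adjusted P = 0.256) in Yeats2 auxin, and these did not pass the threshold. They were -0.30 and -0.26 without Control replicate 1, and -0.89 and -0.86 without Control replicate 2. A protein-coding gene, *Gm28635*, overlaps exons of *Ctnnd1* on the same strand, and reads there were left unassigned by the counting mode used, so the count of *Ctnnd1* is uncertain to that extent.

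Over the 6 genes that could be tested, 0 were called at a Benjamini-Hochberg adjusted P under 0.05 in edgeR in any of the 3 comparisons, with smallest adjusted P values of 0.144, 0.256 and 0.779. Among all genes tested, 0.753% were called in Zzz3 auxin against Control, 0.445% in Yeats2 auxin against Control and 0.0% in Yeats2 auxin against Zzz3 auxin. At an unadjusted P under 0.05, 2 of the 6 passed for Zzz3 auxin (*Jup* and *Ctnnd1*, against 21.7% of all genes), 1 for Yeats2 auxin (*Ctnnd1*, against 14.6%) and 0 between the depletions (against 6.25%). DESeq2 called 0 of the 6 in each comparison, and 7.47%, 3.15% and 0.00909% of the genes it gave an adjusted P. Libraries of both groups did not overlap for 2 genes in Zzz3 auxin (*Ctnnb1* and *Ctnnd1*, against 35.8% of all genes), for 4 in Yeats2 auxin (*Cdh1*, *Ctnna1*, *Ctnnb1* and *Ctnnd1*, against 40.3%) and for 0 in the direct comparison (against 11.1%). The median log2 FC of the 6 genes was 0.17, 0.20 and 0.01 in the 3 comparisons, and that of all genes 0.01, -0.01 and -0.01. Both comparisons with Control share the controls, so the likeness of *Ctnnd1* or *Cdh1* between them is not an independent observation.

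**Figure D3:**
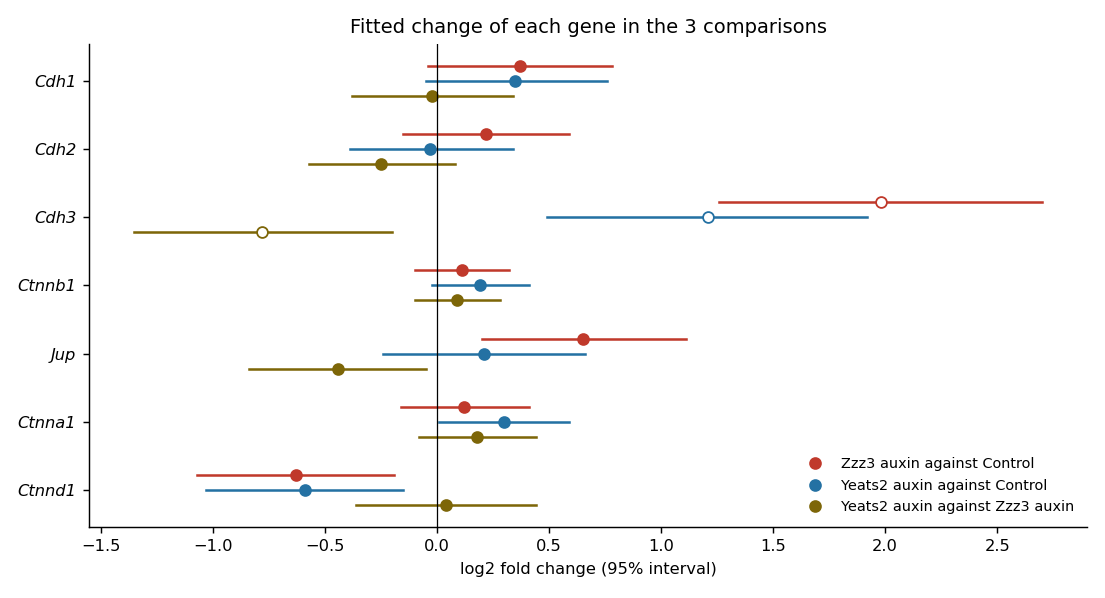
Fitted log2 fold change (x axis) of each gene with its 95% interval in the 3 comparisons. Open points mark *Cdh3*, which was chosen by its value in Zzz3 auxin and has no test. The other 18 values lie between -0.63 and 0.65, and 0 of them passed the adjusted threshold.

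Genes that work with cadherins and catenins were examined in 10 lists of 114 different genes, of which 88 passed the filter on low counts. *Axin2* and *Lef1* stand in 2 lists each. In edgeR 0 of these were called in each comparison. At an unadjusted P under 0.05, 28.4% passed in Zzz3 auxin against Control, 20.5% in Yeats2 auxin against Control and 10.2% in the direct comparison, beside the 21.7%, 14.6% and 6.25% of all genes. DESeq2 called 7 genes, named after their values were seen, in Zzz3 auxin (*Actn1*, *Bcl9l*, *Camsap3*, *Esrp2*, *Nectin4*, *Notum* and *Plekha7*) and 4 in Yeats2 auxin (*Actn4*, *Camsap3*, *Cdh4* and *Nectin4*), out of 88, while it called 7.47% and 3.15% of all genes. These shares were near that background. The median log2 FC of the 88 was 0.13, 0.04 and -0.09.

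Among the other cadherins, *Cdh4* (R-cadherin, the type I member closest to *Cdh2*) had 4.52 ± 0.734 CPM (SD, n = 2) in Control, 6.06 ± 2.42 (SD, n = 3) in Zzz3 auxin and 9.77 ± 2.29 (SD, n = 3) in Yeats2 auxin, with log2 FCs of 0.41 (adjusted P = 0.521) and 1.11 (adjusted P = 0.180). *Cdh15* did not pass the filter. Of 24 type II, truncated and desmosomal cadherins, 7 passed it, and their log2 FC had a median of 0.42 after Zzz3 and 0.06 after Yeats2 depletion. The most abundant was *Dsg2*, which encodes a desmoglein of simple epithelia and to which plakoglobin binds in desmosomes. It had 121 ± 40.2 CPM (SD, n = 2) in Control, 81.1 ± 16.2 (SD, n = 3) in Zzz3 auxin and 111 ± 6.44 (SD, n = 3) in Yeats2 auxin (adjusted P = 0.138 and 0.800). Of the other catenins and the plakophilins, 6 of 9 passed the filter, the log2 FC was positive for all 6 in Zzz3 auxin and for 5 in Yeats2 auxin, and *Pkp4* was the most abundant, with 147 ± 0.12 (SD, n = 2), 180 ± 12.0 (SD, n = 3) and 176 ± 3.58 CPM (SD, n = 3; adjusted P = 0.156 and 0.296).

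All 15 adherens junction partners passed the filter. Their median log2 FC was 0.34 in Zzz3 auxin, where 13 values were positive, and 0.15 in Yeats2 auxin, where 12 were. *Actn4*, an actin crosslinker and the most abundant of them, had 202 ± 25.1 CPM (SD, n = 2) in Control, 255 ± 45.3 (SD, n = 3) in Zzz3 auxin and 332 ± 71.1 (SD, n = 3) in Yeats2 auxin (adjusted P = 0.329 and 0.138). *Camsap3* and *Plekha7*, which anchor microtubules at the junction, had log2 FCs of 1.04 and 0.53 in Zzz3 auxin and of 0.87 and 0.48 in Yeats2 auxin, with edgeR adjusted P values of 0.0655 and 0.0878, then 0.140 and 0.171. *Nectin4*, an immunoglobulin-type adhesion receptor, had 1.32 and 1.58 (edgeR adjusted P = 0.106 and 0.120). These 3 were named after their values were seen. The 11 genes of cadherin processing and turnover had medians of -0.03 and -0.11, and *Arf6*, a GTPase of cadherin endocytosis, stood at 113 ± 3.57, 111 ± 7.55 and 105 ± 11.9 CPM (SD, n = 2, 3 and 3).

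Repressors of *Cdh1* transcription were for the most part weakly expressed. Of 9 listed genes 8 passed the filter, and the median log2 FC of these was 0.38 for Zzz3 auxin and -0.11 for Yeats2 auxin. *Tcf4* (the E2-2 bHLH factor) was the most abundant, with 123 ± 13.7 CPM (SD, n = 2) in Control, 117 ± 26.8 (SD, n = 3) in Zzz3 auxin and 105 ± 9.92 (SD, n = 3) in Yeats2 auxin (adjusted P = 0.841 and 0.567). *Snai1*, the best known repressor of *Cdh1*, had a mean of 0.644 CPM in Control, 0.957 in Zzz3 auxin and 0.622 in Yeats2 auxin. *Snai3* had 0 and 1 reads in Control and between 4 and 15 in the auxin libraries, so its fitted change rests on almost no reads. These 2 were named after their values were seen. Among 9 measured epithelial transcription and splicing factors, the medians were 0.11 and 0.12, and *Klf4* stood at 105 ± 2.17, 110 ± 6.17 and 115 ± 8.45 CPM (SD, n = 2, 3 and 3; adjusted P = 0.779 and 0.619).

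On the Wnt side, the 10 genes of the β-catenin destruction complex had median log2 FCs of 0.06 and -0.05. *Csnk1a1*, the kinase that primes β-catenin for GSK3, had 838 ± 48.6 CPM (SD, n = 2) in Control, 681 ± 63.5 (SD, n = 3) in Zzz3 auxin and 725 ± 13.5 (SD, n = 3) in Yeats2 auxin (adjusted P = 0.165 and 0.421). The 9 TCF/LEF factors and β-catenin cofactors had medians of -0.10 and -0.02, and *Pygo2* stood at 72.0 ± 11.7, 67.1 ± 16.7 and 71.2 ± 3.76 CPM (SD, n = 2, 3 and 3). Of 15 Wnt/β-catenin target genes, 14 passed the filter, with medians of 0.34 in Zzz3 auxin and -0.01 in Yeats2 auxin. *Ccnd1* (cyclin D1) was the most abundant target, with 183 ± 17.9 CPM (SD, n = 2) in Control, 243 ± 67.3 (SD, n = 3) in Zzz3 auxin and 254 ± 5.78 (SD, n = 3) in Yeats2 auxin (adjusted P = 0.230 and 0.276). *Axin2*, a feedback inhibitor in the lists of the destruction complex and of the target genes, was named after its values were seen. It had 60.3, 77.3 and 59.4 CPM on average and log2 FCs of 0.36 and -0.02 (adjusted P = 0.381 and 0.972).

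**Figure D4:**
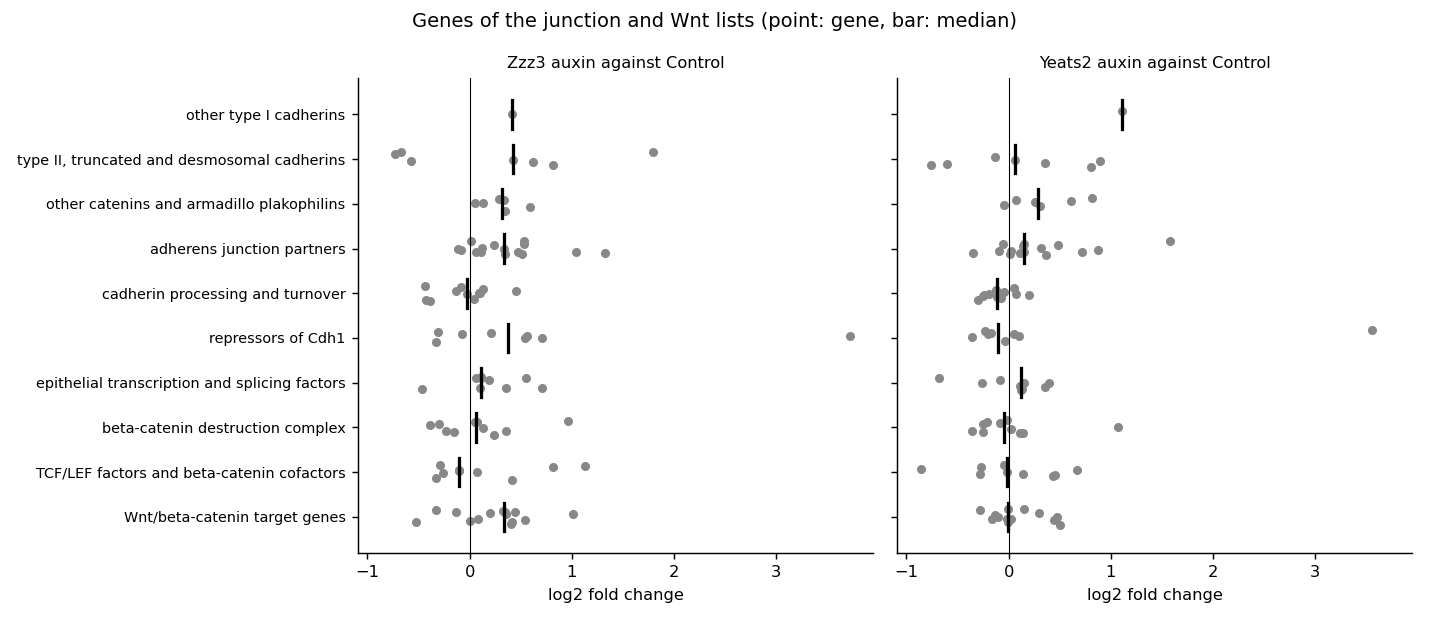
Log2 fold change against Control (x axes) of the genes of each list that passed the filter, 1 point per gene with a bar at the list's median, in Zzz3 auxin (left) and Yeats2 auxin (right). Points are displaced vertically at random. The point far to the right in the row of *Cdh1* repressors is *Snai3*, with 0 and 1 reads in the controls, and 0 of the points passed the adjusted threshold in edgeR.

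Because *Cdh3* and *Cdh2* are also expressed by differentiated cells, markers of such cells were summed in every library. In bulk RNA, more cells of a type and more RNA per cell cannot be told apart. Markers of trophectoderm and trophoblast, a lineage with P-cadherin, summed to 51.7 and 54.7 CPM in Control, 53.7 to 56.8 in Zzz3 auxin and 54.4 to 56.5 in Yeats2 auxin, and 8 of the 10 passed the filter, while *Elf5* and *Hand1* were at 0 in Control and *Hand1* was at 0 in Zzz3 auxin. *Tfap2c* (28.2, 30.5 and 30.5 CPM) made up the largest part of this sum, and its members went opposite ways, with log2 FCs of -0.46 and -0.64 for *Eomes*, 0.64 and 0.70 for the keratin gene *Krt8*, and 2.54 and 2.18 for *Krt7*, which had a mean of 0.138 CPM in Control. In edgeR 0 markers of any list were called. Neuroectoderm markers (4 of 6 past the filter) summed to 41.6 and 44.3 CPM in Control, 51.3 to 75.7 in Zzz3 auxin and 45.9 to 52.4 in Yeats2 auxin. The sum was mostly *Nes*, and the markers did not move together, since *Sox1* had log2 FCs of -0.81 and -1.0, and *Pax6* had 1.41 in Zzz3 auxin but -0.56 in Yeats2 auxin. Primed epiblast markers (4 of 5) summed to 144 and 164 CPM in Control, 171 to 186 in Zzz3 auxin and 206 to 220 in Yeats2 auxin. Most of this was *Dnmt3b*, with means of 136, 160 and 199 CPM, while 2 of the 4 markers in Zzz3 auxin and 3 of the 4 in Yeats2 auxin, *Otx2* (-0.64), *Pou3f1* (-0.63) and *Zic2* (-0.28), had a negative log2 FC. Mesendoderm markers (4 of 6) summed to 15.9 and 18.1 CPM in Control, 14.7 to 23.0 in Zzz3 auxin and 12.3 to 15.0 in Yeats2 auxin. Primitive endoderm markers (4 of 7) summed to 5.38 and 5.76, 5.55 to 8.59 and 5.57 to 6.11 CPM in the same order. Fibroblast and mesenchyme markers (5 of 7) summed to 1150 and 1260, 1320 to 1690 and 1060 to 1460 CPM. The main part of the last sum was *Fn1* (means of 858, 1180 and 940 CPM) and *Vim* (338, 365 and 369 CPM). *Mesp1*, *Fgf5* and *Col3a1* were at 0 in Control. The part of any of these marker lists in the level of *Cdh3* was not tested.

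As a description of the shape of the *Cdh3* profile, its log2 CPM was correlated with that of 13899 genes over the 8 libraries, which share their controls and their differences of depth. Highest were *Gpatch8*, a G-patch protein (r = 0.996), *Eif2ak3*, the endoplasmic reticulum stress kinase PERK (r = 0.980), *Exoc2*, an exocyst subunit (r = 0.979), the predicted gene *Gm2016* (r = 0.973) and *Ppfibp2*, a liprin (r = 0.971). In all, 123 genes reached an r of 0.9. The sizes differed widely, since *Gpatch8* ran from 76.8 to 100.0 CPM and *Exoc2* from 42.9 to 49.5 CPM, whereas *Gm2016* ran from 0.363 to 2.76 CPM. None of the 6 other cadherin and catenin genes was near these values, with r of 0.722 for *Cdh1*, 0.587 for *Cdh2*, 0.483 for *Jup*, 0.418 for *Ctnnb1*, 0.371 for *Ctnna1* and -0.446 for *Ctnnd1*. Which genes ranked highest depended on single libraries, and without Zzz3 auxin replicate 1 only 1 of the 5 was still among the highest 5.

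**Figure D5:**
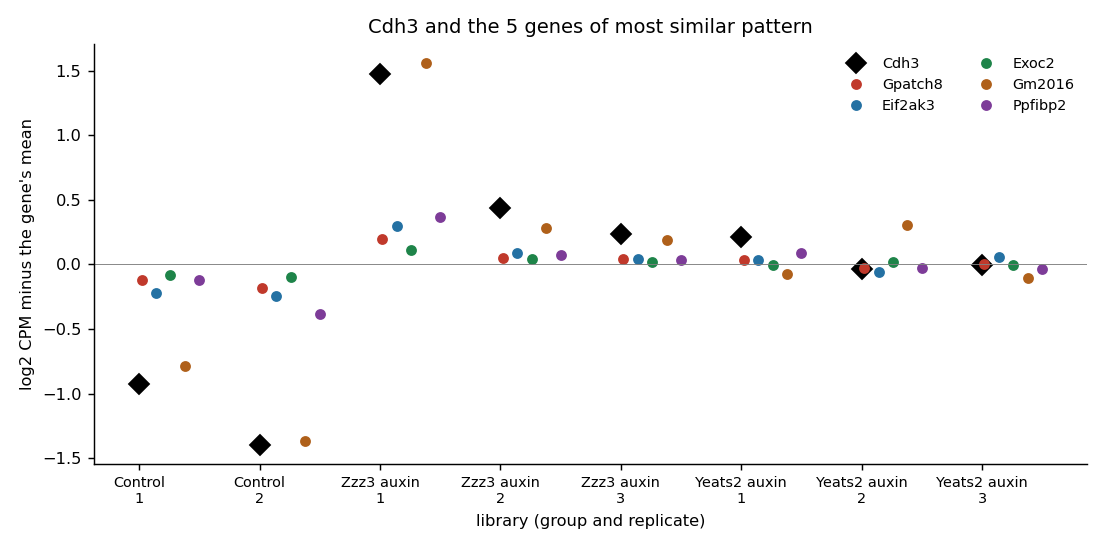
Log2 CPM minus the mean of the gene over all libraries (y axis) of *Cdh3* (diamonds) and of the 5 genes with the highest correlation to it (circles) in each of the 8 libraries (x axis). All are lowest in both controls and highest in Zzz3 auxin replicate 1, and only *Gm2016* spans a range like that of *Cdh3*.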

How the data were processed

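Total RNA libraries (8) of mouse ESCs were analysed. The deposited values are raw counts: per the labels and the methods of the study, the authors aligned reads to mm10 with STAR 2.5.3a, after adapter trimming and removal of ribosomal RNA reads, and counted unique, unambiguous reads per Ensembl gene with HTSeq 0.6.1p1. The strand setting is not stated. The labels name poly(A) RNA, the protocol ribosomal depletion. Of the 55401 genes in each table, 55141 were named by GENCODE annotation of GRCm38, and 5 rows that tally unassigned reads were not used.

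Genes were kept by filterByExpr and libraries were scaled by TMM (trimmed mean of M values). All 8 libraries were fitted together in edgeR 4.0.16 (R 4.3.3) with robust quasi-likelihood tests, two-sided. Benjamini-Hochberg adjustment was over all 17532 genes in each of 3 comparisons. On simulated counts, 77.5%, 77.8% and 84.2% of added changes were recovered, and 5.76%, 8.38% and 6.46% of calls were false. The added changes were larger than those of the tested cadherin and catenin genes, so power for smaller changes was not measured. The 95% interval of a log2 FC is normal, from its SE, and is narrower than the edgeR test implies. For *Ctnna1* in Yeats2 auxin against Control it was 0.01 to 0.59 at an unadjusted edgeR P of 0.0648. DESeq2 1.42.0, which the study used in version 1.16.1, was an alternative. Tables and plots used Python 3.11.15, pandas 2.3.3 and matplotlib 3.10.9.

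The genes and lists were chosen with earlier results of these data known. Named were the 7 genes, the 5 with the highest Pearson r to *Cdh3* (prior count 2, mean of at least 1 CPM), filtered genes within 250 kb of *Cdh3* or *Cdh1*, and from each list the genes called, otherwise the most abundant. Within groups, no 2 libraries were duplicates (chi-square per gene 3.82 to 53.9), and pairs across groups were not checked. Yeats2 auxin replicates 1 and 3 were the closest pair, at 3.82, while all other pairs had 22.1 to 53.9. The 2 controls and the depth both limit precision.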

Additional observations from a re-analysis of the deposited data

How the results depend on the processing

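Alternatives were DESeq2, median-of-ratios scaling, no filter on low counts, a fit of only the compared groups, the replicate number as a block, removal of trends on GC content and exon length, and leaving out each of the 8 libraries, where a lone control was assumed to vary like the other groups. Of 252 log2 FCs of the 6 tested genes under alternatives, 236 kept their direction and side of the threshold, 4 passed it newly and 12 changed sign, all from small values. Without the filter, 2 genes were called in Zzz3 auxin (*Ctnnd1*, adjusted P = 0.00633, and *Jup*, adjusted P = 0.000845) and 1 in Yeats2 auxin (*Ctnnd1*, adjusted P = 0.0316), and the causes were not tested. Leaving out single libraries gave 0 to 1 called in Zzz3 auxin (*Cdh1*). Changed signs were *Cdh2* in Yeats2 auxin (0.06 with the replicate block, -0.12 to 0.03 without single libraries), *Jup* in Yeats2 auxin (-0.02 with the GC and length correction, -0.04 to 0.52 without single libraries), and in Yeats2 against Zzz3 auxin *Cdh1* (0.03 with the replicate block, -0.23 to 0.21 without single libraries) and *Ctnnd1* (-0.10 to 0.22 without single libraries).

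Over all genes, 132 were called in Zzz3 auxin, but 1079 by DESeq2, 1542 without the filter, 42 with the replicate block, 0 with only the compared groups (2606 at an unadjusted P under 0.05) and from 0, without either control, to 841, without Zzz3 auxin replicate 2. In Yeats2 auxin 78 were called, but 415 by DESeq2, 553 without the filter, 454 with only the compared groups, 32 with the replicate block, 132 with the GC and length correction and from 0, without Control replicate 1 or Yeats2 auxin replicate 3, to 217, without Zzz3 auxin replicate 3. In the direct comparison edgeR called 0 (1095 at an unadjusted P under 0.05), DESeq2 3, the fit without the filter 117, and fits without single libraries 0 to 1. Deviations from the group means in libraries of the same replicate number had r of -0.172 to 0.196. Libraries of different numbers were not compared, so these values do not show whether the numbers pair the libraries. The replicate block changed no call of the 6 genes. *Cdh3* ran from 1.51 to 2.22 in Zzz3 auxin, 0.99 to 1.45 in Yeats2 auxin and -0.98 to -0.29 between them. With the longest transcript as length, *Cdh1* held 97.3%, 96.5% and 97.4% of the summed *Cdh1*, *Cdh2* and *Cdh3* RNA in Control, Zzz3 auxin and Yeats2 auxin. The order of *Cdh2* and *Cdh3* in Zzz3 auxin changed with the length. Their mean shares were 2.0% and 1.46% by the longest transcript, but 1.25% and 1.51% by the union of exons. Of the 5 genes most like *Cdh3*, 1 stayed among the highest 5 by Spearman's rho and 1 to 4 without single libraries.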
